A study of Mus musculus with 4 samples.

Results

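The genes described are the 7 AP-1 transcription factor genes Fos, Fosb, Fosl2, Jun, Junb, Jund and Atf3, out of 8699 genes listed in each library. They were taken by name after the deposited Ensembl identifiers had been matched to mouse symbols, and they were chosen because several of them had far fewer reads in the nicotine libraries. Their difference between nicotine and saline is therefore given as a description, and test calls on it are printed without being used as support. Spermatozoa came from the cauda epididymidis, where mature sperm are stored, of C57BL/6J male mice of about 11 weeks. One group had received nicotine, the main alkaloid of tobacco (nicotine replicates 1 and 2), and the other saline (saline replicates 1 and 2), with 2 libraries per group. The sperm were pressed out of a nicked duct, and the labels' protocols name no step that removes other cells. No transgene or mutation is named, and the sources used here do not state dose, route or the number of animals behind each library. P-values thus measure only the spread between these libraries, which may be technical.

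AP-1 is a dimeric transcription factor. A Fos protein (Fos, Fosb, Fosl2) pairs with a Jun protein (Jun, Junb, Jund) through a leucine zipper, and the pair binds a short DNA element found in genes of growth, stress, inflammation and matrix turnover. Atf3 is a stress-induced relative that also pairs with Jun proteins. Most of these genes are immediate early genes, whose messenger RNAs are made within minutes of a stimulus without new protein synthesis and are soon degraded, whereas Jund is made at a steadier rate in many tissues. Mature sperm do not transcribe, so their messenger RNAs are mostly remnants of spermatid stages, and sperm collected from the duct can carry RNA of epididymal, connective tissue and immune cells.

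Sequence stretches before the start sites are shown because DNA elements for CREB, ATF and AP-1 proteins near the start are a known feature of these genes. All 7 genes matched a RefSeq promoter window of build GRCm38.p6, which is a later build than the mm8 named in the submitters' processing notes. Each line gives the 150 bases before the annotated start, 5′ to 3′ on the gene's strand, with every match to TGACG, TGACATCA, TTACGTCA or TATAAA on either strand in capitals. Jund is included as the gene whose levels overlapped between groups on one scale. Fosl2, which had fewer reads in nicotine, is not shown, and like Jund it had no match in these 150 bases.
Fos, chr12:85473740-85473889, plus strand: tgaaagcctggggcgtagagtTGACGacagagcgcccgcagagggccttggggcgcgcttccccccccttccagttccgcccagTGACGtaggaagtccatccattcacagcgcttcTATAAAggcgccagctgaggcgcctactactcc
Fosb, chr7:19310046-19310195, minus strand: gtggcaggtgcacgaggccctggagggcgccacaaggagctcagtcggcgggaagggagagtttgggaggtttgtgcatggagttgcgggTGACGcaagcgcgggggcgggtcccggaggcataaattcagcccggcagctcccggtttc
Jun, chr4:95052223-95052372, minus strand: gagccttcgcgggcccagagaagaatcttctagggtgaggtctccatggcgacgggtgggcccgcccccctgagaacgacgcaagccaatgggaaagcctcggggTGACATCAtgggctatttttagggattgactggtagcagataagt
Junb, chr8:84978749-84978898, minus strand: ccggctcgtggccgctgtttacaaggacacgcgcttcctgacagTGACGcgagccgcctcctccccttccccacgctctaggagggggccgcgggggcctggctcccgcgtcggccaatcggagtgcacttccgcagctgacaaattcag
Atf3, chr1:191183334-191183483, minus strand: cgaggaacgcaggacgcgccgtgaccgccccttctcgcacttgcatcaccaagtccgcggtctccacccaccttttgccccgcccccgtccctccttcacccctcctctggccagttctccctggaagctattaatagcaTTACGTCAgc
Jund, chr8:70697589-70697738, plus strand: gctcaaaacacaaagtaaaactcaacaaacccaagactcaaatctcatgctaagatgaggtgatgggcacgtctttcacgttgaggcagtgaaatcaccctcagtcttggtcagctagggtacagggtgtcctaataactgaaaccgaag

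TGACG, the core of the element bound by CREB and ATF proteins, was found in 4 of the 7 windows of 250 bases before to 50 after the start (Fos, Fosb, Junb and Atf3) and in 20.8% of all 32851 RefSeq windows. In Fos it began 129 and 66 bases before the start, in Fosb 60 and in Junb 106 bases before it. In Atf3 it lies on the other strand within TTACGTCA, which begins 10 bases before the start and is present in 0.499% of windows. TGACATCA, an AP-1-like element known from the human JUN promoter, began 45 bases before the start of Jun and was present in 3.62% of windows. TATAAA was found in Fos, 33 bases before the start, and in Junb from the first transcribed base on, against 13.6% of windows. The full elements TGACGTCA (1.79% of windows) and TGACTCA (5.20%) and the CArG box of serum response factor (1.63%), also searched on both strands, had no match in these 7 windows. A match is a description of letters and not a mapped binding site, and no match says only that these letters are not in this window.

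The messenger RNAs were also searched for AU-rich elements, which are known to speed the decay of immediate early transcripts. In the GENCODE M21 transcripts of build GRCm38, the nonamer TTATTTATT was present in the 3′ untranslated region of Fos and Fosl2, that is in 2 of 7 genes, against 6.9% of 8274 listed genes. The stretches are shown because they are the fullest such elements among the 7 genes, with the nonamer in capitals.
Fos: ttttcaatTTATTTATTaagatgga
Fosl2: ttattttaTTATTTATTttaaatgt
The shorter motif ATTTA, which the nonamer contains, occurred at 4.91 per kb in Fos, 4.12 per kb in Junb and 3.24 per kb in Jun, against a median of 1.31 per kb over the listed genes. It occurred at 2.53 per kb in Atf3, 1.88 in Jund, 1.72 in Fosl2 and 0.466 in Fosb. Jun, Junb and Jund each consist of a single exon (3 of the 7 genes), as do 1.85% of the listed genes.

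Depth outside a pair of genes set the precision. The listed genes held 3798794 and 5216745 reads in nicotine replicates 1 and 2, and 3999449 and 3856022 reads in saline replicates 1 and 2. Lars2 and Gm42418 took 90.6% and 77.5% of them in the nicotine libraries, and 74.9% and 75.8% in the saline libraries. The remaining reads numbered 358477 and 1176304 in nicotine replicates 1 and 2, and 1002360 and 931578 in saline replicates 1 and 2, so nicotine replicate 1 was the shallowest. Levels are given as reads, as CPM after TMM scaling, which sets the bulk of genes equal between libraries, or as RPM of remaining reads. The limit that a count of 0 allows, 3 counts, equalled 2.43 and 0.517 CPM in nicotine replicates 1 and 2. That floor was 0.447 and 0.473 CPM in saline replicates 1 and 2. Neither the intervals nor the floors cover more than counting error.

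The 7 genes together had 31 and 142 reads in nicotine replicates 1 and 2, against 1080 and 554 reads in saline replicates 1 and 2. The lower reads lay mainly in 6 of them, and Jund stood apart. Without Jund the sums were 18 and 66 reads in the nicotine libraries and 950 and 487 in the saline libraries. As RPM of remaining reads this was 50.2 (95% counting interval 29.8 to 79.4) and 56.1 (43.4 to 71.4) in nicotine replicates 1 and 2. In saline replicates 1 and 2 it was 948 (888 to 1010) and 523 (477 to 571). The nicotine libraries thus differed by less than counting error on this scale (ratio 0.895, interval 0.500 to 1.53), while the saline libraries differed by a factor of 1.81 (1.62 to 2.03). In bulk RNA, fewer cells of a type and less RNA per cell cannot be told apart.

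**Figure D1:**
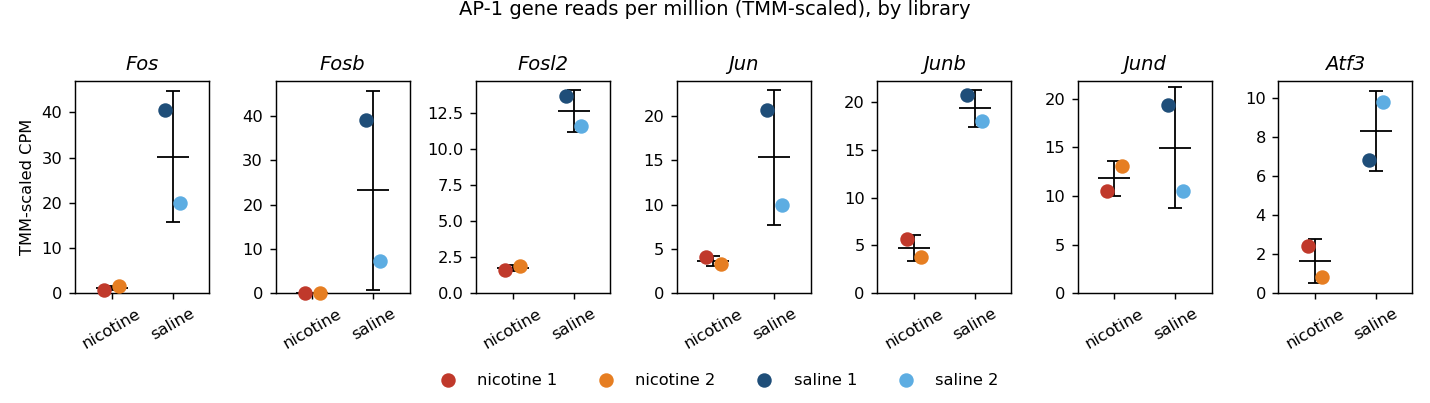
TMM-scaled CPM of each of the 7 AP-1 genes, with 1 panel per gene and its own axis from 0. Points are libraries, black bars the mean ± SD of 2 libraries. In 6 panels both nicotine points lie under both saline points, and in the Jund panel the groups overlap.

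Among the Fos proteins, Fos (ENSMUSG00000021250), the founding member and a classical immediate early gene, had 1 and 9 reads in nicotine replicates 1 and 2, against 272 and 127 reads in saline replicates 1 and 2. As CPM these were 0.812 and 1.55 with nicotine, and 40.5 and 20.0 with saline. Both nicotine libraries were low and both saline libraries high, without overlap. The 1 read in nicotine replicate 1 was under the floor of 3 counts. The mean was 1.18 ± 0.52 CPM in nicotine and 30.3 ± 14.5 CPM in saline (SD, n = 2 each), and the log2 fold change from the fit over all genes was -4.45 ± 0.67. From summed reads Fos was 21.5-fold lower in nicotine (counting interval 11.6 to 45.1). Its log2 fold change was the 12th lowest of 8375 tested genes.

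Fosb (ENSMUSG00000003545), which can replace Fos in the dimer, had 0 reads in both nicotine libraries, against 262 and 47 reads in saline replicates 1 and 2. It was listed at 39.0 and 7.40 CPM in those saline libraries, so saline replicate 1 held most of its reads. Against a floor of 3 counts over the nicotine group it was at least 55.4-fold lower in nicotine, and at least 17.4-fold lower without saline replicate 1. The bound was 9.71-fold without nicotine replicate 2, since the remaining library is shallow, 91.4-fold without saline replicate 2 and 45.7-fold without nicotine replicate 1. Fosb also had the widest spread between saline libraries of the 7 genes, with a ratio of replicate 1 to replicate 2 of 5.18 (counting interval 3.79 to 7.23) in RPM of remaining reads. The same ratio was 1.99 (1.61 to 2.48) for Fos and 1.16 (0.842 to 1.59) for Fosl2.

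Fosl2 (ENSMUSG00000029135), also called Fra-2, a Fos protein that lacks the strong activation domain of Fos, had 2 and 11 reads in nicotine replicates 1 and 2, against 92 and 74 reads in saline replicates 1 and 2. The levels were 1.62 and 1.90 CPM with nicotine, and 13.7 and 11.7 CPM with saline. The groups did not overlap, and the saline libraries agreed within counting error. The 2 reads in nicotine replicate 1 were under the floor of 3 counts. In RPM of remaining reads the ratio of nicotine replicate 1 to 2 was 0.597 (counting interval 0.0643 to 2.73), so their closeness is uncertain. The log2 fold change was -2.78 ± 0.59, and from summed reads Fosl2 was 6.87-fold lower in nicotine (3.91 to 13.2).

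Among the Jun proteins, Jun (ENSMUSG00000052684), the main partner of Fos, had 5 and 19 reads in nicotine replicates 1 and 2, against 139 and 63 reads in saline replicates 1 and 2. As CPM these were 4.06 and 3.28 with nicotine, and 20.7 and 9.92 with saline. Saline replicate 1 was the highest and the groups did not overlap. The log2 fold change was -2.11 ± 0.59, or 4.53-fold lower in nicotine from summed reads (2.96 to 7.23), and it was -1.49 without saline replicate 1.

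Junb (ENSMUSG00000052837), which can oppose Jun on some promoters, had 7 and 22 reads in nicotine replicates 1 and 2, against 139 and 114 reads in saline replicates 1 and 2. As CPM these were 5.68 and 3.79 with nicotine, and 20.7 and 17.96 with saline. The saline libraries agreed within counting error (ratio 1.13, interval 0.878 to 1.46), and the nicotine libraries were both low. Its log2 fold change, -2.11 ± 0.52, was close to that of Jun.

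Jund (ENSMUSG00000071076), the Jun protein with the steadiest expression in most tissues, had 13 and 76 reads in nicotine replicates 1 and 2, against 130 and 67 reads in saline replicates 1 and 2. As CPM these were 10.6 and 13.1 with nicotine, and 19.4 and 10.6 with saline, so the groups overlapped. The mean was 11.8 ± 1.81 CPM in nicotine and 15.0 ± 6.22 CPM in saline (SD, n = 2 each). The log2 fold change was -0.31 ± 0.50, which is close to the median of -0.14 over all tested genes, and it was 0.16 without saline replicate 1. From summed reads Jund was 1.19-fold lower in nicotine (counting interval 0.923 to 1.55). As RPM of remaining reads it had 36.3 and 64.6 with nicotine, and 130 and 71.9 with saline, where the groups did not overlap.

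Atf3 (ENSMUSG00000026628), which is induced by many stresses, had 3 and 5 reads in nicotine replicates 1 and 2, against 46 and 62 reads in saline replicates 1 and 2. As CPM these were 2.43 and 0.862 with nicotine, and 6.85 and 9.77 with saline. The reads in nicotine replicate 1 were at the floor of 3 counts. The groups did not overlap, and the log2 fold change was -2.68 ± 0.73. Without nicotine replicate 2 it was -1.69. Atf3 was the only one of the 7 genes with fewer reads in saline replicate 1 than in saline replicate 2 (ratio 0.690, interval 0.460 to 1.03, in RPM of remaining reads).

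Both nicotine libraries lay below both saline libraries in 6 of the 7 genes by CPM, where 31% of the 8375 tested genes did so and 27.4% lay the other way. In RPM of remaining reads this held for 7 of 7 genes, and for 54.7% of the tested genes. By edgeR's quasi-likelihood test 5 of the 7 (Fos, Fosb, Fosl2, Junb and Atf3) had an adjusted p under 0.05 in the lower direction, against 0.931% of all tested genes. The genes were chosen on this same difference, so nothing is read from these counts. Their number was 2 without saline replicate 1 and 2 without saline replicate 2. It was 1 with scaling by total reads and 0 with scaling by remaining reads. All 7 passed the filter on low counts, which asked for a set level in any 2 libraries. Of them 6 needed their saline reads for that, and Jund alone also reached it in both nicotine libraries. Of the 78 genes called lower, 73 needed their saline reads in the same way, against 4830 of the 8375 tested genes. The median log2 fold change of the 7 genes was -2.68, which does not depend on the value taken for Fosb, against -0.14 for all tested genes. It was -3.93 with total reads, where all genes had -1.28, and -3.30 with remaining reads, where all genes had -0.77.

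Ratios between the 7 genes within a library do not depend on the scaling. The deposited RPKM values, which take account of gene length, put Jund first in both nicotine libraries, with 1.19 and 5.06 RPKM, followed by Junb with 1.00 and 2.29 and Jun with 0.413 and 1.14. In saline replicate 1 Fos led with 28.9 RPKM, ahead of Junb with 18.9. In saline replicate 2 Junb led with 16.1 RPKM, ahead of Fos with 14.0. The first 2 places thus changed between the saline libraries, and neither order held beyond the spread. Fosl2 was the lowest in saline replicate 1 with 2.38 RPKM, and Fosb in saline replicate 2 with 1.95 RPKM beside 1.98 RPKM for Fosl2.

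**Figure D2:**
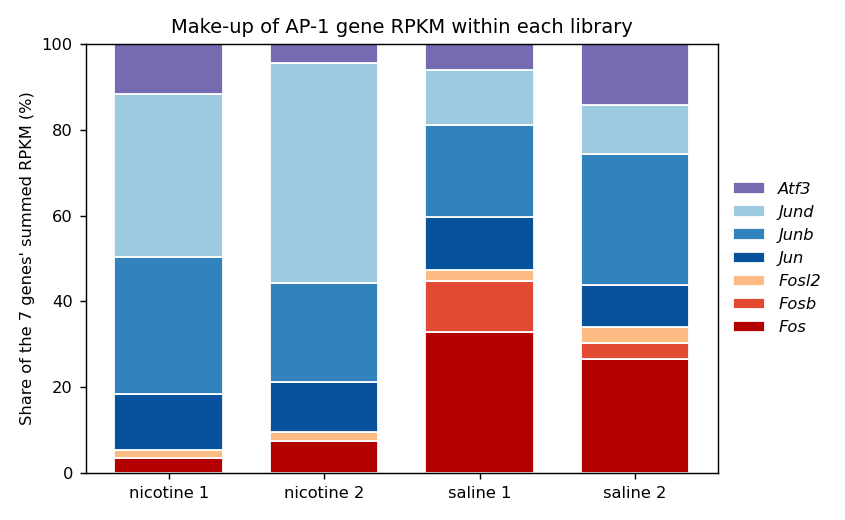
Share of each of the 7 genes in their summed RPKM, as stacked bars from 0 to 100% for the 4 libraries. Jund makes up 37.9% and 51.2% in the nicotine libraries, and 12.8% and 11.5% in the saline libraries.

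The Fos family genes made up 5.30% and 9.62% of the summed RPKM of the 7 genes in nicotine replicates 1 and 2. In saline replicates 1 and 2 they made up 47.4% and 34.1%. Fos alone held 3.57% and 7.41% with nicotine, and 32.8% and 26.6% with saline. The Jun family genes held 83.0% and 85.9% with nicotine, and 46.6% and 51.7% with saline. The plot of shares by library shows that this difference lay mainly in Fos and Jund. As reads, Jund was 41.9% of the 7 genes in nicotine replicate 1 (exact Clopper-Pearson 95% interval 24.5 to 60.9%) and 53.5% in nicotine replicate 2 (45.0 to 61.9%). In saline replicates 1 and 2 it was 12.04% (10.2 to 14.1%) and 12.1% (9.50 to 15.1%). For every 100 Jund reads there were 7.69 Fos reads (counting interval 0.181 to 51.2) in nicotine replicate 1 and 11.8 (5.22 to 23.7) in nicotine replicate 2. In saline replicates 1 and 2 there were 209 (169 to 260) and 190 (140 to 259). Fos was chosen for its low nicotine reads and Jund is the member that overlapped, so these ratios describe the choice of genes and are no test.

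Some marker lists of other cell types also differed between the groups, and their part in these differences was not tested. The shares below are of remaining reads, where the median log2 fold change over all tested genes was -0.77. Of the lists used, 22 of 26 spermatid and sperm markers were among the listed genes, and all 22 had reads in every library. They were led by Smcp and Odf1 of the sperm tail and the protamine Prm2. Prm2 had 1788 and 10569 reads in nicotine replicates 1 and 2, against 4180 and 2732 in saline replicates 1 and 2. The share of this list in remaining reads was 5.54% and 5.35% in nicotine replicates 1 and 2. In saline replicates 1 and 2 it was 1.97% and 1.70%. The fibroblast, smooth muscle and endothelial list (21 of 25 listed), led by the muscle genes Myh11 and Acta2 and the collagen Col3a1, held 0.211% and 0.797% with nicotine, and 3.14% and 1.53% with saline. It had 2 and 0 members at 0 reads in nicotine replicates 1 and 2, and 0 and 1 in saline replicates 1 and 2. The epididymal epithelium list (14 of 26 listed), led by Crisp1, Clu and Adam7, held 0.495% and 1.84% with nicotine and 0.684% and 2.22% with saline, so its groups overlapped. It had 1 member at 0 in nicotine replicate 1 and 0 in the other libraries.

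The leukocyte list (16 of 25 listed) held 0.129% and 0.488% of remaining reads with nicotine, and 0.357% and 0.672% with saline. The groups of this list overlapped. It had 2 members at 0 reads in nicotine replicate 1, among them the macrophage marker Cd68, and 0 in the other libraries. Most of its reads fell on Cd52, which leukocytes share with the epididymal epithelium. Without Cd52, an exclusion chosen after seeing the data, it held 0.0324% and 0.0402% with nicotine, and 0.132% and 0.148% with saline. The common leukocyte antigen Ptprc had 4 and 19 reads in nicotine replicates 1 and 2, against 35 and 53 in saline replicates 1 and 2. Lyz2, the lysozyme of myeloid cells, had 39 and 80 reads with nicotine, and 532 and 328 with saline. Cd74, another member with many reads, had 27 and 159 with nicotine, and 203 and 288 with saline. The macrophage marker Adgre1 did not fall, with 12.2 and 3.97 CPM with nicotine, and 6.10 and 6.77 CPM with saline. Its log2 fold change was 0.15 ± 0.63 (edgeR adjusted p = 0.913).

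The ratios of the 6 AP-1 genes other than Jund to these marker lists are a description too, since low nicotine reads were what the genes were chosen for, and the intervals hold counting error alone. Per 100 reads of the connective tissue and muscle list the 6 genes had 2.38 reads (counting interval 1.41 to 3.79) in nicotine replicate 1 and 0.704 (0.544 to 0.897) in nicotine replicate 2. In saline replicates 1 and 2 they had 3.02 (2.83 to 3.22) and 3.42 (3.11 to 3.74). Nicotine replicate 1 could therefore not be told from the saline libraries at this depth. Fos alone had 0.132 reads per 100 (0.00335 to 0.740) and 0.0960 (0.0439 to 0.182) with nicotine, and 0.864 (0.764 to 0.974) and 0.891 (0.742 to 1.06) with saline.

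Per 100 reads of the whole leukocyte list, the 6 genes had 3.90 (2.29 to 6.23) and 1.15 (0.889 to 1.47) with nicotine, and 26.6 (24.7 to 28.5) and 7.78 (7.08 to 8.53) with saline, so libraries of the same group differed by more than counting error. Without Cd52 they had 15.5 (8.88 to 25.6) and 14.0 (10.6 to 18.1) with nicotine, and 71.9 (66.0 to 78.2) and 35.2 (31.7 to 39.1) with saline, where the nicotine libraries lay close together. Per 100 reads of the epididymal epithelium list they had 1.01 (0.599 to 1.61) and 0.305 (0.236 to 0.388) with nicotine, and 13.8 (12.9 to 14.8) and 2.35 (2.15 to 2.58) with saline. Per 100 spermatid and sperm reads they had 0.0907 (0.0538 to 0.143) and 0.105 (0.0810 to 0.133) with nicotine, and 4.81 (4.50 to 5.14) and 3.08 (2.81 to 3.37) with saline.

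**Figure D3:**
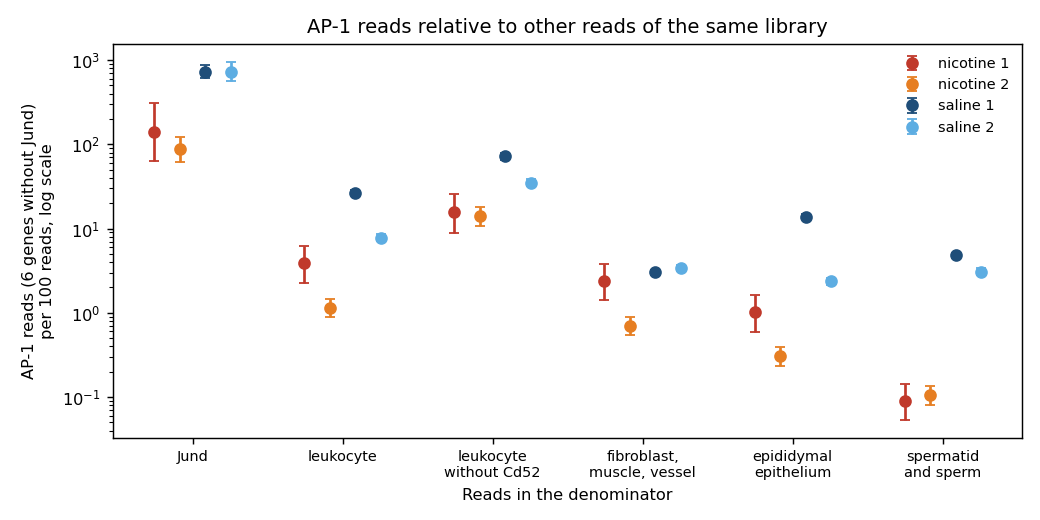
Reads of the 6 AP-1 genes other than Jund per 100 reads of Jund or of a marker list in the same library, on a log scale with 95% counting intervals. The nicotine libraries lie under the saline libraries for each denominator, and the intervals meet for fibroblast, muscle and vessel markers, at 2.38 in nicotine replicate 1 and 3.02 in saline replicate 1.

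The other genes of the pathway were read from lists of known roles in the fit over all genes. There 0.931% of tested genes were lower and 8.27% higher at an adjusted p under 0.05 by edgeR, and 55.5% had a negative log2 fold change. An edgeR unadjusted p under 0.05 in either direction was found for 23.7% of tested genes. DESeq2 called 78 of the 8375 tested genes lower and 901 higher. Among dimer partners and related bZIP factors (18 of 32 listed, 17 tested) 0 were lower and 1 was higher by edgeR, and 1 was lower and 2 higher at an unadjusted p under 0.05. DESeq2 called 0 lower and 2 higher. The list's median log2 fold change was -0.40. The gene that rose was Crem, the cAMP-responsive regulator of spermatid genes, with 68 and 151 reads in nicotine replicates 1 and 2 and 35 and 32 in saline replicates 1 and 2. Its log2 fold change was 2.95 ± 0.55 (edgeR adjusted p = 0.0329). Its relative Creb1 had 1.87 ± 0.60 (adjusted p = 0.0819). Creb1 passed with DESeq2 (adjusted p = 0.0344) and without nicotine replicate 2 (log2 fold change 2.60, edgeR adjusted p = 3.2e-05), and had 0.83 without nicotine replicate 1 (edgeR adjusted p = 0.206). The stress-regulated Atf2 had 0.88 ± 0.46 (adjusted p = 0.284) and Nfe2l1, a regulator of proteasome genes, had -0.90 ± 0.47 (adjusted p = 0.276).

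Of the MAP kinases and serum response factors that carry signals to the AP-1 genes (35 of 43 listed, 34 tested), 0 were lower and 0 higher by edgeR. At an unadjusted p under 0.05, 4 were lower and 1 higher, where 23.7% of tested genes passed in either direction. DESeq2 called 0 lower and 1 higher. The median log2 fold change, -0.18, was close to that of all genes. Members with many reads were Map2k2, a kinase of the ERK branch, with 0.38 ± 0.47 (adjusted p = 0.676), and Map3k1, a kinase of the JNK branch, with -1.04 ± 0.50 (adjusted p = 0.242).

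Of the textbook AP-1 target genes (22 of 32 listed, 21 tested), 4 fell and 0 rose, and 21 of 21 had a negative log2 fold change, with a median of -1.23. Of the 21, 17 reached the filter only with their saline reads, among them the 4 that fell. These 4 also had an adjusted p under 0.05 by edgeR with no filter. Of the 4 that reached the filter in both nicotine libraries, 4 were negative, against 1048 of 3545 such genes among all tested. The 55.5% over all tested genes is therefore not a like background for this list. Ptgs2, the inducible cyclooxygenase, had 0 and 10 reads in nicotine replicates 1 and 2, against 152 and 125 reads in saline replicates 1 and 2. Its log2 fold change was -4.02 ± 0.70 (edgeR adjusted p = 0.0329). The inflammatory cytokine Tnf had 1 and 0 reads with nicotine, against 17 and 127 with saline, a 77.5-fold lower level in nicotine with a counting interval of 13.7 to 3082 (adjusted p = 0.0379). Its reads lay mostly in saline replicate 2, without which its adjusted p was 0.381. Spp1, osteopontin, had 2 and 4 reads with nicotine, against 34 and 439 with saline, and its adjusted p = 0.0334 became 0.467 without saline replicate 2, where its log2 fold change was -2.39.

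Cd44, a hyaluronan receptor of many cell types, fell as well (log2 fold change -3.37 ± 0.83, edgeR adjusted p = 0.0353), with 0 and 6 reads with nicotine against 37 and 72 with saline. The members with the most reads were matrix and cytoskeletal genes that did not pass. Sparc had -1.58 ± 0.75 (adjusted p = 0.235), Itgb1, an integrin chain, -0.97 ± 0.61 (adjusted p = 0.376) and Vim, vimentin, -1.001 ± 0.71 (adjusted p = 0.436). Each of these values turned on single libraries. Leaving out saline replicate 1 gave 0.04 for Sparc, and leaving out nicotine replicate 1 gave -2.26 (edgeR adjusted p = 0.0331). For Itgb1 the value was -0.31 when nicotine replicate 1 was left out and -2.30 when nicotine replicate 2 was (edgeR adjusted p = 0.000749). For Vim it was -0.16 when nicotine replicate 2 was left out and -2.48 when nicotine replicate 1 was (edgeR adjusted p = 0.00508).

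**Figure D4:**
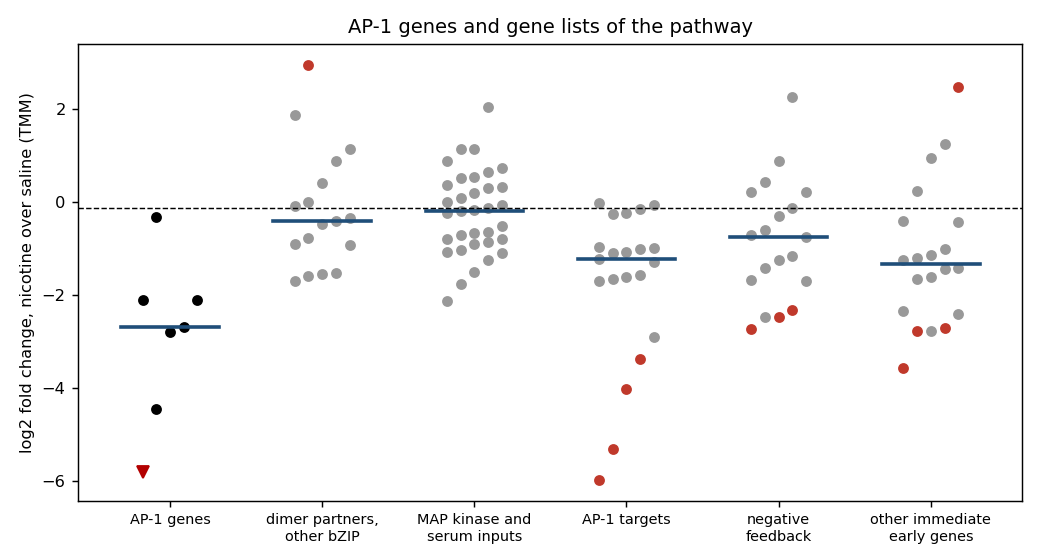
Log2 fold change of nicotine over saline for the 7 AP-1 genes (black) and the tested members of 5 pathway lists (red where the adjusted p was under 0.05, grey otherwise). Blue bars are medians, the dashed line the median of all tested genes, and the triangle the bound for Fosb from a floor of 3 counts. The AP-1 median is -2.68, and the MAP kinase median of -0.18 lies beside the dashed line at -0.14.

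Genes that shut the response off also included lower members. In the negative feedback list (19 of 30 listed, 19 tested) 3 fell and 0 rose, with a median log2 fold change of -0.76. The 3 reached the filter only with their saline reads, as did 15 of the 19 tested and 4830 of all 8375 tested genes. Of the 4 that reached it in both nicotine libraries, 1 had a negative log2 fold change, against 1048 of 3545 such genes among all tested. Dusp1, a phosphatase that inactivates MAP kinases, had 7 and 16 reads in nicotine replicates 1 and 2, against 130 and 114 reads in saline replicates 1 and 2, with a log2 fold change of -2.31 ± 0.56 (edgeR adjusted p = 0.0349). Zfp36, which binds AU-rich elements and speeds messenger RNA decay, had 3 and 21 reads with nicotine, against 171 and 67 with saline (log2 fold change -2.47 ± 0.62, adjusted p = 0.0375). Tnfaip3, an inhibitor of NF-kappa-B signalling, had 2 and 16 reads with nicotine, against 78 and 132 with saline (-2.73 ± 0.60, adjusted p = 0.0329). The member with the most reads, the growth inhibitor Btg1, had -0.76 ± 0.55 (adjusted p = 0.441).

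Of the other immediate early genes (20 of 29 listed, 20 tested), 3 fell and 1 rose, with a median of -1.33. The 3 that fell, Egr1, Rhob and Klf2, needed their saline reads for the filter, as did 17 of the 20 tested and 4830 of all 8375. Of the 3 that reached it in both nicotine libraries, 0 had a negative log2 fold change, against 1048 of 3545 such genes among all tested. Egr1, a zinc finger factor, had 6 and 20 reads with nicotine, against 233 and 109 with saline (-2.71 ± 0.59, adjusted p = 0.0329, edgeR). Rhob, a small GTPase, had 2 and 12 reads with nicotine, against 87 and 89 with saline (-2.78 ± 0.58, adjusted p = 0.0329). Klf2, a zinc finger factor, had 3 reads in the nicotine group and 73 in the saline group, a 13.1-fold lower level in nicotine (counting interval 4.31 to 65.0, edgeR adjusted p = 0.0339). Pim1, a serine/threonine kinase, had 332 and 791 reads with nicotine and 253 and 223 with saline, with a log2 fold change of 2.47 ± 0.54 (adjusted p = 0.0329). The clock gene Per1, the member with the most reads that did not pass, had 0.95 ± 0.62 (adjusted p = 0.391), and 1.74 without nicotine replicate 2 (edgeR adjusted p = 0.00217).

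Of the 12 list genes that passed, 3 (Ptgs2, Spp1 and Tnf) still had an adjusted p under 0.05 without saline replicate 1, and 1 (Ptgs2) without saline replicate 2. Without nicotine replicate 2 the 11 genes other than Klf2 passed, and with DESeq2 the 11 other than Tnf. With remaining reads as the scale 0 of the 12 passed by edgeR (highest adjusted p = 0.0815), and with total reads 2 did. With no filter on low counts 12 of the 12 passed. The 12 log2 fold changes kept their sign in each of the 9 alternatives.

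The genes whose pattern over the 4 libraries was nearest to a member were found by the root mean square distance between gene-centred log2 CPM, among tested genes of at least median level. Nearest to Fos were Ptgs2 (0.692), Rbfox3 (0.728), Fosb (0.811), Ctsz (0.842) and Fosl2 (0.881). Rbfox3, a neuronal splicing factor, had 1 and 17 reads in nicotine replicates 1 and 2 and 140 and 63 in saline replicates 1 and 2. Ctsz, a lysosomal protease, had 0 and 6 reads with nicotine and 58 and 118 with saline.

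Nearest to Jun were Prune2 (0.126), Ryr3 (0.202), Myom1 (0.204), Sh3pxd2a (0.204) and Tnxb (0.206). Prune2 had 8 and 30 reads in nicotine replicates 1 and 2, against 242 and 86 in saline replicates 1 and 2. Myom1, a protein of the muscle sarcomere, had 14 and 52 reads with nicotine, against 258 and 154 with saline. Tnxb, a matrix protein of connective tissue, had 15 and 55 reads with nicotine, against 277 and 175 with saline.

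Among the 7 genes themselves the nearest patterns were those of Jun and Junb (0.311) and of Junb and Atf3 (0.349), and Fosb and Jund lay farthest apart (2.65). Fos lay nearer to Fosb (0.811) and Fosl2 (0.881) than to Jun (1.23) or Jund (1.99). These distances describe 4 libraries and carry no test.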

How the data were processed

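Reads per gene in spermatozoa were compared between 2 nicotine and 2 saline libraries, grouped by the labels. The submitters' processing notes name TopHat, CASAVA and the build mm8. The counter, annotation, strand setting and treatment of multiply mapped reads are not given in the sources used here, so reads of antisense or overlapping genes cannot be told apart. The deposited read column was handled as estimated counts because its last line, without a gene, holds the authors' RPKM factor, but it was whole on every gene line and rounding changed nothing. The deposited RPKM values equalled those recomputed from reads, length and total. Symbols matched 8688 of 8699 genes.

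edgeR 4.0.16 (R 4.3.3) was run with TMM scaling (factors 0.325 and 1.11 in nicotine replicates 1 and 2, 1.68 and 1.65 in saline replicates 1 and 2), filterByExpr with a minimum count of 10 (8375 genes tested, 324 not) and group as the only term. The threshold was a Benjamini-Hochberg adjusted p of 0.05 over all tested genes. The fit was first run on simulated counts with equal numbers of raised and lowered genes and a fixed spread between libraries. That run does not show how the fit performs at the spread of these libraries. Standard errors were derived from the log2 fold change and the quasi-likelihood F. Counting intervals are exact, at 95%. Alternatives were DESeq2 1.42.0, other scalings, no filter, the replicate number as a block and each library left out. Libraries within a group differed by more than sampling noise. With Lars2 and Gm42418 included, the chi-square per degree of freedom was 48.6 between the nicotine libraries (7235 genes) and 10.6 between the saline libraries (8306 genes). The members and lists were chosen with earlier results of these data known. Named were the 7 members, of each pathway list the called members and the 3 with the most reads, of each marker list the 3 with the most reads, and the 5 genes nearest in pattern to Fos and to Jun. One gene that this rule would name is not reported here. Cd68, Ptprc and Lyz2 were named as defining leukocyte markers, and Adgre1 as a member of that list that did not fall.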

Additional observations from a re-analysis of the deposited data

How the results depend on the processing

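All 7 AP-1 genes had negative log2 fold changes in the 9 alternatives, except Jund at 0.16 without saline replicate 1 (-0.71 to 0.16 with a library left out). Signs also turned for Atf2 (-0.40 with total reads), Map2k2 (-0.88 with total reads, -0.32 with remaining reads), Sparc (-2.35 to 0.043 with a library left out, positive without saline replicate 1) and Per1 (-0.77 with total reads, and -0.25 to 1.74 with a library left out, negative without nicotine replicate 1). None of these passed with all 4 libraries and TMM scaling, but Sparc passed without nicotine replicate 1 (-2.26, edgeR adjusted p = 0.0331) and Per1 without nicotine replicate 2 (1.74, edgeR adjusted p = 0.00217). The cause was not tested. Over all genes, 9 were lower and 0 higher with total reads (888 at an unadjusted p under 0.05), and 0 and 0 with remaining reads by edgeR (2523 at an unadjusted p under 0.05). With each library left out, 9 to 824 were lower and 0 to 1515 higher. Of the AP-1 genes 1 was called lower with total reads, 0 with remaining reads and 2 to 6 with a library left out. With total reads 2 AP-1 targets, 0 feedback and 0 other immediate early genes were lower, and Crem and Pim1 no longer passed, which leaves 0 higher in their lists. With remaining reads all of these were 0. DESeq2 called 2 bZIP factors, 1 MAP kinase input and 1 feedback gene higher, where it called 901 of the 8375 tested genes higher.

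With a library left out, counts lower were 0 to 2 MAP kinase inputs, 1 to 9 targets, 0 to 5 feedback and 0 to 9 other immediate early genes. Counts higher were 0 to 3 bZIP factors, 0 to 3 MAP kinase inputs, 0 to 1 feedback and 0 to 2 other immediate early genes. The log2 ratio of marker shares, nicotine over saline, was -0.74 for leukocytes (-1.95 without Cd52, and -1.997 to -0.078 with a library left out). It was -2.21 for connective tissue and muscle (-3.47 to -1.55) and -0.32 for epididymal epithelium (-1.55 to 0.77). For sperm it was 1.57 (0.94 as a share of all reads, 1.47 to 1.68 with a library left out). With remaining reads the median log2 fold change over all tested genes was -0.77, close to the leukocyte value and below the epididymal one.

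The labels number the replicates 1 and 2 in each group but do not say that numbers pair the mice, and the deviations of same-numbered libraries correlated at 0.173 over genes. With the replicate number as a block 279 genes were lower and 1078 higher, against 78 and 693 without it. In that blocked fit 1 MAP kinase input, 6 feedback and 7 other immediate early genes were lower, and 2 bZIP factors, 1 MAP kinase input and 1 feedback gene higher. Few reads in nicotine replicate 1 limit what can be said of genes near 3 counts there.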
